A study of Drosophila melanogaster with 64 samples.

Results

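The seminal receptacle is the coiled, muscular tube in which Drosophila melanogaster females keep most of the sperm they will use first. It opens near the junction of the bursa and the oviduct. Its wall is a thin epithelium wrapped in muscle. Sperm enter it soon after mating, are held there for days, and are released in small numbers as eggs pass. RNA from this organ was compared between females 24 h after mating and unmated females, in 6 of the 64 libraries of the series, 3 per group. These 6 libraries are the columns of the count table that carry the labels of the seminal receptacle at 24 h and unmated, whichever values they hold.

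All females were of the LHM strain and 3 to 8 days old, and each library pooled organs from many females. Mated females gave tissue only if sperm could be seen in the seminal receptacle, so every mated pool came from females known to hold sperm. LHM is a wild-type laboratory strain, and by their labels the groups differ in mating and the time since, which was counted from pairing. The libraries also differed in depth and content, as given below. Another 4 libraries of the organ at 6 h entered the same fit, and the bursa (4 libraries at 24 h, 4 unmated), the oviduct (3 and 3) and the spermathecae (4 and 4) were used to see where the organ's change differed.

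As background, mating changes the female tract through sperm, seminal proteins and the bacteria that can come with them. Antimicrobial peptides are small secreted proteins that kill microbes, and are switched on through the Toll, Imd and JAK/STAT pathways. Muscle contraction in the tract is set by octopamine, which is made from tyramine, and by peptides, and contraction moves both eggs and sperm. The contractile unit of this muscle is the sarcomere, built of actin, myosin and the calcium sensor troponin.

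Total read counts were 26097684, 12177864 and 14132323 in 24 h replicates 1, 2 and 3, and 26129687, 23608897 and 24246881 in unmated replicates 1, 2 and 3. Replicate 1 of each group was sequenced in run 1 and replicates 2 and 3 in run 2, so both groups held the runs in the same numbers. Levels are depth-scaled read counts (CPM), with library sizes adjusted by TMM factors in edgeR. CPM is not divided by gene length, so it serves to compare libraries and not genes.

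The muscle and epithelial markers of the organ were present in every library. Mhc, the myosin heavy chain, was at 3850, 3138 and 3484 CPM in the 24 h libraries, against 3000, 2081 and 2152 CPM in the unmated ones. The epithelial genes shg, which encodes E-cadherin, and cora, of septate junctions, were at 20.4 to 39.6 and 292.5 to 379.5 CPM at 24 h, against 22.8 to 57.8 and 289.8 to 462.1 CPM unmated. Markers of neighbouring tissue were present too. The fat body and yolk list summed to 11440, 43110 and 27150 CPM at 24 h, against 17950, 35020 and 24480 CPM unmated. The serine proteases of the spermathecae summed to 1036, 5677 and 4558 CPM at 24 h, against 1799, 9316 and 5000 CPM unmated, and lz, a transcription factor of the secretory cells, stood at 1.01 to 1.35 CPM against 1.29 to 1.42 CPM. Genes of the male accessory gland summed to at most 1.31 CPM at 24 h and 1.43 CPM unmated. No read of SP, the seminal sex peptide, was counted in any of these 6 libraries, and none of the testis gene dj at 24 h. Mst87F, another testis gene, was at 0.328, 0.303 and 0 CPM at 24 h, against 0.108, 0 and 0 CPM unmated. The whole list of stored sperm and testis transcripts summed to 1324, 784.9 and 935.1 CPM at 24 h, against 930.1, 817.3 and 796 CPM unmated. At 6 h it summed to 2465, 3071, 1528 and 1773 CPM. The seminal fluid protein list summed to 42.2, 73.9 and 73.3 CPM at 24 h, against 73.0, 74.5 and 52.3 CPM unmated. Its member Acp53C14a was at 5.58, 0 and 0 CPM at 24 h and at 0 CPM unmated, and was called by DESeq2 but not by edgeR. The paper reports genes known as seminal fluid proteins among those specific to the parovaria, glands of the female tract. Where the reads of Acp53C14a came from was not tested.

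One library stood apart. Replicate 1 at 24 h held egg and germline transcripts: dhd, a thioredoxin of the female germline, was at 992.6 CPM there, against 19.5 and 8.9 CPM in 24 h replicates 2 and 3 and 11.4, 5.49 and 2.40 CPM in unmated replicates 1, 2 and 3. The yolk protein receptor yl was at 143.7 CPM in that library and at 1.98 CPM or less in the other 5. Cyclin B (CycB) was at 148.7 CPM against 8.89 CPM or less. The other 24 h libraries stood out in other ways. They had the lowest totals, and pre-rRNA:CR45845 was at 33.8 and 34.2 CPM against 1.62 CPM or less in the other 4. Mitochondrial transcripts took 22.2% and 17.7% of their reads, against 9.58 to 12.3% in the unmated libraries and 10.6% in 24 h replicate 1. At 6 h this share was 18.4% and 20.8% in the libraries of run 2, and 8.71% and 5.47% in those of run 1. Values without 24 h replicate 1 are therefore given below beside those of the called genes described and of the gene lists.

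**Figure D1:**
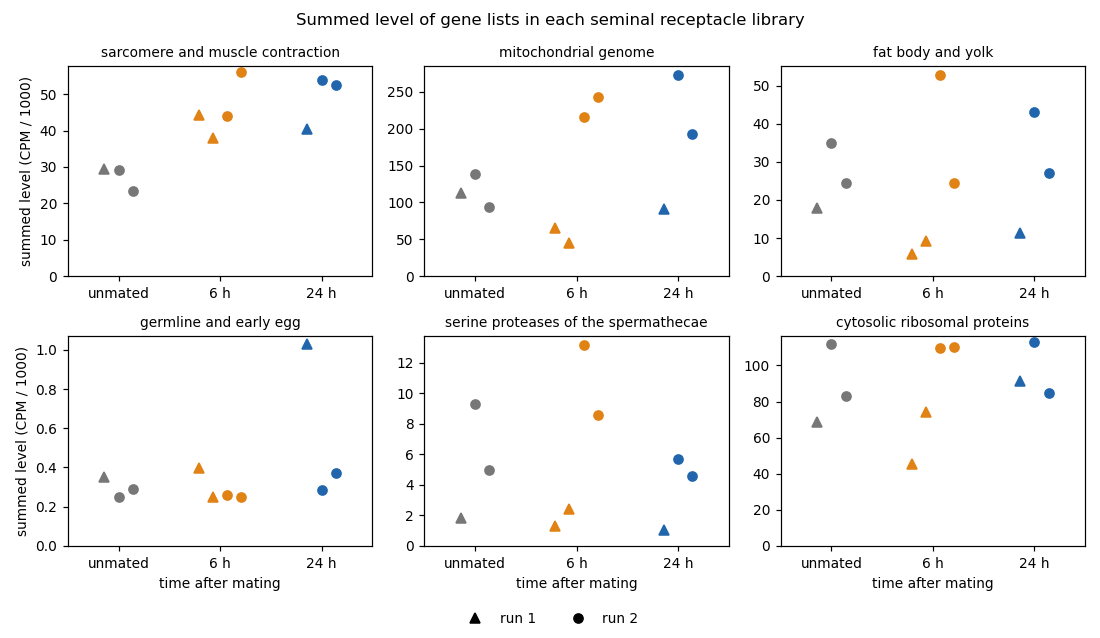
Summed level of 6 gene lists (CPM divided by 1000, from 0) in each seminal receptacle library, by time after mating, with triangles for run 1 and circles for run 2. Germline and early egg genes were high in 24 h replicate 1 alone (1031 CPM), and the sarcomere list was higher in all 3 libraries at 24 h (40540 to 53800 CPM) than in the 3 unmated ones (23350 to 29430 CPM).

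Of 8141 genes expressed in the seminal receptacle, 12 passed a Benjamini-Hochberg adjusted p of 0.05 in edgeR's quasi-likelihood test at 24 h (0.147%), and all 12 were higher. No gene passed as lower (0%), where an unadjusted p under 0.05 was reached by 457 genes (5.61%), 120 of them lower (1.47%). DESeq2 called 59 genes as higher (0.725%) and 7 as lower (0.086%), with 200 lower at an unadjusted p under 0.05 (2.46%). Among the 12 were the antimicrobial peptide genes Def and Listericin, the muscle genes Act87E, Act88F and TpnC47D, the metabolic and detoxifying genes GstD5, MtnB and Tdc1, the elongation factor eEF1alpha2, and CG4269 and CG11617. In bulk tissue, more or fewer cells of a type cannot be told apart from more or less RNA per cell. In each of the 12 the lowest of the 24 h libraries lay above the highest unmated library, as it did for 370 of the 8141 genes (4.54%). Another 292 genes had every 24 h library below every unmated one (3.59%). At the Bonferroni-adjusted threshold of 0.01 that the study's methods use, 3 genes remained (0.0369%): Def, Listericin and Tdc1. The median log2 fold change over all genes was 0.

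**Figure D2:**
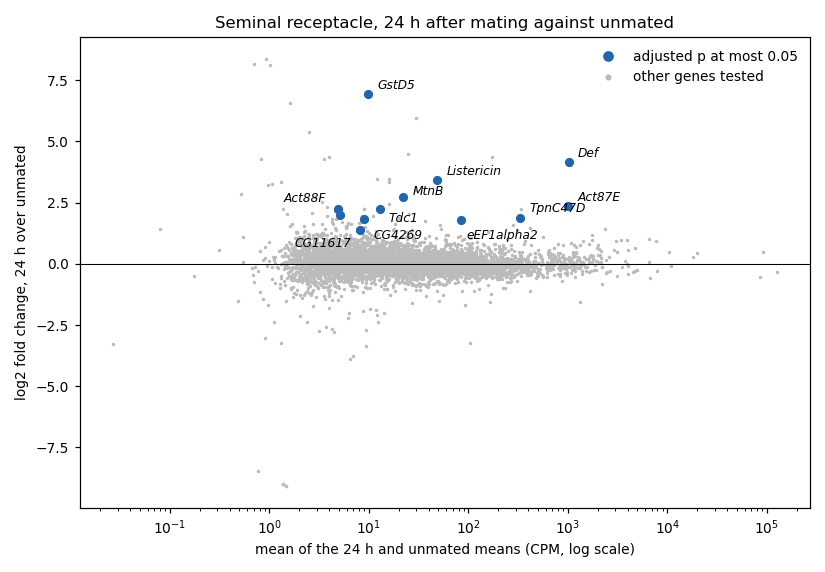
Log2 fold change at 24 h over unmated for each of the 8141 genes tested, against the mean of the 24 h and unmated mean levels (CPM, log axis). The 12 called genes (blue, 11 of them labelled) lie between 1.37 and 6.94, and no called gene lies below 0.

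The calls rested on few libraries. GstD5, Def, Listericin, Act87E and Tdc1 kept an adjusted p of 0.05 or less (edgeR quasi-likelihood test) in each of the 6 fits that left out 1 library of the comparison. Act88F kept it in 3 of these 6 fits, eEF1alpha2 in 2, and MtnB, TpnC47D, CG4269 and CG11617 in 1. The number of called genes was 12 without 24 h replicate 1, 6 without replicate 2 and 10 without replicate 3, and 7, 5 and 5 without unmated replicates 1, 2 and 3. All 12 genes kept a positive change in every one of these fits. Without 24 h replicate 1, 9 of the 12 were called, and the 3 genes new to the list were pre-rRNA:CR45845 and Tyler as higher and Adhr as lower. Adhr had 74, 0 and 0 reads in the 24 h libraries, against 123, 224 and 206 reads in the unmated ones. With the replicate number of the count table as a block over the 6 libraries of the comparison, a fit added after seeing the data that left 2 residual degrees of freedom, 3 genes were called and 2 of them were among the 12: Def (4.23, adjusted p = 0.0243) and Listericin (3.48, adjusted p = 0.0156). The third was Pxt, a peroxidase of the ovary, whose reads lay almost all in 24 h replicate 1: 5331, 10 and 10 reads in the 24 h libraries, against 47, 0 and 0 reads in the unmated ones. The other 10 of the 12 stayed positive in that fit, with adjusted p between 0.0642 and 0.26.

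Antimicrobial peptide genes gave 2 of the calls. Def encodes Defensin, a peptide active mainly against Gram-positive bacteria (FBgn0010385; BDGP6, chromosome arm 2R, 10054178 to 10054576, minus strand). It stood at 1370, 2236 and 2211 CPM in the 24 h libraries, against 99.4, 134.4 and 79.3 CPM in the unmated ones. Every mated library was thus more than an order of magnitude above its unmated counterparts. The log2 fold change was 4.16 ± 0.35 (SE), which is 17.9-fold, with an adjusted p of 0.00196 in edgeR's quasi-likelihood test, and 4.19 without 24 h replicate 1. Listericin, an antibacterial protein (FBgn0033593; 2R, 11241745 to 11242194, minus strand), was at 138.7, 60.3 and 68.5 CPM at 24 h, against 15.6, 5.25 and 5.12 CPM unmated. Run 1 gave the highest library of both groups, and the groups were far from overlapping. Its log2 fold change was 3.44 ± 0.30 (SE; adjusted p = 0.00197), and 3.40 without 24 h replicate 1.

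The rest of the antimicrobial peptide list was not called in edgeR's fit of the seminal receptacle alone. Of its 16 genes tested, 2 were higher, none was lower, 13 had a positive change and 5 had every 24 h library above every unmated one. The shares over all 8141 genes were 0.147% higher, 4061 genes with a positive change and 4.54% with every 24 h library above every unmated one. The median of the list was 0.63 (0.61 without 24 h replicate 1). CecA1, a cecropin, was at 20.8, 103.9 and 50.7 CPM at 24 h, against 8.75, 20.9 and 17.4 CPM unmated, so that 24 h replicate 1 fell just inside the unmated range. Its log2 fold change was 1.76 ± 0.32 (SE), with an adjusted p of 0.127 (edgeR quasi-likelihood test). DESeq2 called CecA1 (adjusted p = 0.000144), as did the fit of 4 tissues described below (adjusted p = 0.0341, edgeR quasi-likelihood test). AttA, an attacin, was at 24.0, 46.7 and 47.9 CPM at 24 h, against 11.2, 22.2 and 10.3 CPM unmated. The log2 fold change of AttA was 1.39 ± 0.30 (SE), with an adjusted p of 0.233 (edgeR quasi-likelihood test). DESeq2 called it (adjusted p = 0.00481), and the fit of 4 tissues did not (adjusted p = 0.116, edgeR quasi-likelihood test). AttA and AttB are near-identical copies, so reads may have been split between them.

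Drs, which encodes the antifungal peptide Drosomycin, took more reads than any other gene in the unmated organ. It was at 85050, 135800 and 115700 CPM at 24 h, against 107300, 166900 and 151200 CPM unmated. The groups overlapped, and its log2 fold change was -0.34 (adjusted p = 0.905). The diptericins DptA and DptB and the attacin AttC were at 0.44, 0.50 and -0.28 on the same log2 scale, none of them called. None of 16 bomanins and daishos (median 0.02), 10 peptidoglycan recognition proteins (median 0.06) and 25 genes of Toll and Imd signalling (median -0.12) was called in either direction. Without 24 h replicate 1 these medians were 0.05, 0.18 and -0.04 in the same order. Their levels varied widely within a group. Dso1, a daisho peptide, was at 63.9, 527.5 and 149.7 CPM at 24 h, against 207.1, 311.8 and 108.9 CPM unmated.

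**Figure D3:**
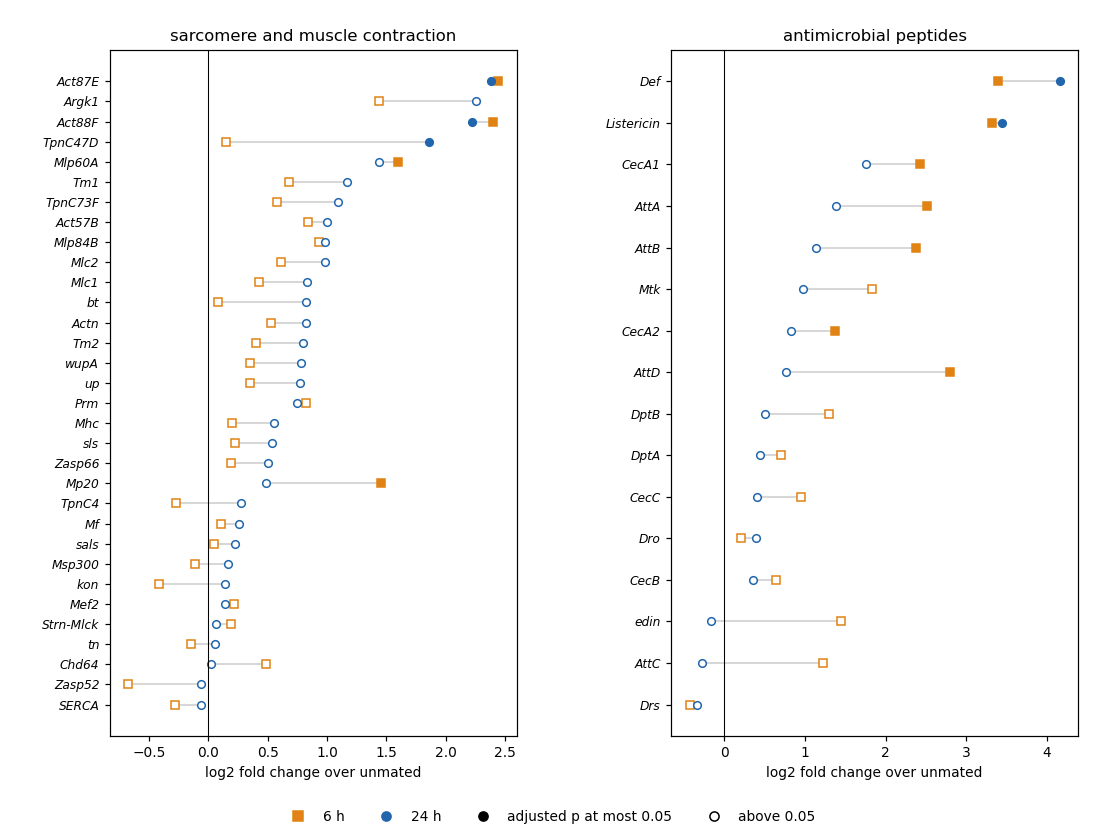
Log2 fold change over unmated at 6 h (orange squares) and at 24 h (blue circles) for the 32 sarcomere genes and 16 antimicrobial peptide genes tested, filled where the adjusted p was at most 0.05 (edgeR quasi-likelihood test). At 24 h, 3 sarcomere genes and 2 peptide genes are filled, and 30 and 13 genes lie above 0. Over all 8141 genes tested, 12 were called and 4061 lay above 0 at 24 h.

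Muscle genes were the other group. Act87E, a muscle actin (FBgn0000046; 3R, 13425983 to 13428375, plus strand), was at 1696, 1611 and 1806 CPM in the 24 h libraries, against 428.2, 327.1 and 249.9 CPM in the unmated ones. The 24 h libraries differed little among themselves and lay well clear of the unmated ones. Its log2 fold change was 2.38 ± 0.23 (SE; adjusted p = 0.00282), and 2.56 without 24 h replicate 1. Act88F, known as the actin of the flight muscle (FBgn0000047; 3R, 15439969 to 15442177, plus strand), was at 8.96, 6.77 and 8.51 CPM at 24 h, against 2.23, 1.48 and 1.58 CPM unmated. Its change of 2.22 ± 0.25 (SE; adjusted p = 0.00835) rested on 273, 67 and 110 reads, against 62, 31 and 39 reads, and was 2.39 without 24 h replicate 1. Fly actin genes are nearly identical in their coding parts, so reads of Act88F may come from Act87E or another actin, and the counting could have split them. The long non-coding RNA gene lncRNA:CR45591 overlaps Act87E on the other strand, and whether reads were counted by strand is not given in the sources used here.

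TpnC47D, a troponin C (FBgn0010423; 2R, 11273845 to 11275286, minus strand), was at 344.8, 658.3 and 571.9 CPM in the 24 h libraries, against 107.2, 189.3 and 128.5 CPM in the unmated ones. Its log2 fold change was 1.86 ± 0.24 (SE; adjusted p = 0.0191), and 1.90 without 24 h replicate 1 (adjusted p = 0.0694, edgeR quasi-likelihood test). The whole sarcomere list leaned the same way. Of 32 genes tested, 3 were higher, none was lower, 30 had a positive change and 15 had every 24 h library above every unmated one. Over all 8141 genes 0.147% were higher, 4061 genes had a positive change and 4.54% had every 24 h library above every unmated one. The median log2 fold change of the list was 0.76, against 0 over all genes. Without 24 h replicate 1 the median was 0.88 and 2 of them were called. The list of epithelial junctions had a median of -0.22, and of 0.03 without 24 h replicate 1, and whether the pools differed in their share of muscle was not tested.

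Among the sarcomere genes with the most reads, Act57B, another muscle actin, was at 9479, 7507 and 8894 CPM at 24 h, against 6119, 3811 and 3431 CPM unmated, with a log2 fold change of 1.00 ± 0.21 (SE) and an adjusted p of 0.218. Mlc2, a myosin light chain, had a change of 0.98 (adjusted p = 0.555), Mp20, a muscle protein, of 0.49 (adjusted p = 0.889) and Mhc of 0.55 (adjusted p = 0.798). The lowest values were those of Zasp52 and SERCA, both at -0.06. Argk1, arginine kinase, had a change of 2.25 that came from 1 library: 157.0, 119.5 and 1359 CPM at 24 h, against 144.2, 110.1 and 125.5 CPM unmated (adjusted p = 0.871). An analysis chosen after the data were seen fitted the seminal receptacle together with the bursa, oviduct and spermathecae, which shares 1 estimate of the spread over more libraries. It called 37 genes as higher (0.454%) and 2 as lower (0.0246%) at 24 h in the seminal receptacle, with all of the 12 among them and 8 of the 32 sarcomere genes. The 5 sarcomere genes it added were Mlp60A, Tm1, TpnC73F, Act57B and Actn, at 1.45, 1.18, 1.10, 1.02 and 0.83. The 2 lower genes were CG3270 at -2.11 and hdly, a female gene of the sex peptide network, at -0.66.

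Detoxification and metal binding gave 2 more calls. GstD5, a glutathione S-transferase of the delta class (FBgn0010041; 3R, 12375733 to 12376572, plus strand), had 283, 383 and 140 reads in the 24 h libraries, against 0, 4 and 8 reads in the unmated ones. These are 9.29, 38.7 and 10.8 CPM at 24 h, against 0, 0.191 and 0.325 CPM unmated. The fitted log2 fold change was 6.94 ± 0.69 (SE; adjusted p = 0.00339), and 6.77 without 24 h replicate 1. With so few unmated reads its size depends on the prior count that edgeR adds. Delta class genes lie in a cluster of similar copies, so their reads may have been split. The others tested, GstD1, GstD3, GstD9 and GstD10, were at -0.25, 0.38, 0.16 and -0.03, none of them called. GstD5 was the only call among the 94 genes tested of the list of P450 and detoxification transferases, whose median change was -0.12 (-0.15 without 24 h replicate 1).

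MtnB, a metallothionein that binds copper and other metals (FBgn0002869; 3R, 20503102 to 20503746, minus strand), was at 22.8, 51.3 and 43.9 CPM in the 24 h libraries, against 5.54, 5.15 and 5.40 CPM in the unmated ones. The unmated values were almost the same, and each 24 h library was far above them. The log2 fold change was 2.73 ± 0.40 (SE; adjusted p = 0.0443), and 2.80 without 24 h replicate 1 (adjusted p = 0.147, edgeR quasi-likelihood test). Its relative MtnA, read far more often, was at -0.06 and MtnF at 1.87, neither called. MtnB was not expressed in the bursa, oviduct or spermathecae at either time, where its means were 0.251 CPM or less on a scale set over the 4 tissues.

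An enzyme of amine synthesis was among the called genes. Tdc1, a tyrosine decarboxylase that makes tyramine outside neurons (FBgn0259977; 2R, 6677001 to 6680391, minus strand), was at 17.3, 26.5 and 20.0 CPM in the 24 h libraries, against 3.78, 5.11 and 4.43 CPM in the unmated ones. The spread within each group was small. Its log2 fold change was 2.25 ± 0.18 (SE; adjusted p = 0.00196), and 2.28 without 24 h replicate 1.

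No receptor for these signals passed the test. Of 9 genes tested of the list of neuromodulator and peptide receptors, none was called and the median was -0.14 (-0.01 without 24 h replicate 1). Oamb, an octopamine receptor, was at 45.0, 21.3 and 38.8 CPM at 24 h, against 48.3, 32.4 and 45.9 CPM unmated (log2 fold change -0.30, adjusted p = 0.922). SPR, the sex peptide receptor, was at 40.3, 66.8 and 68.3 CPM at 24 h, against 87.7, 78.1 and 70.1 CPM unmated, so that each 24 h library was lower, with a change of -0.51 and an adjusted p of 0.908. Pdfr, the receptor of the neuropeptide PDF, had a change of -0.78 (adjusted p = 0.668).

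The last 3 called genes had smaller changes. eEF1alpha2, a translation elongation factor (FBgn0000557; 3R, 31738468 to 31743306, plus strand), was at 87.0, 151.8 and 152.8 CPM in the 24 h libraries, against 41.0, 34.8 and 35.8 CPM in the unmated ones, a log2 fold change of 1.77 ± 0.25 (SE; adjusted p = 0.0335). It was at 1.99 without 24 h replicate 1. Its paralog eEF1alpha1, with far more reads, was at -0.26 and was not called. CG4269 (FBgn0034741; 2R, 22597245 to 22600695, plus strand) was at 7.06, 21.6 and 13.3 CPM at 24 h, against 1.87, 5.97 and 4.10 CPM unmated, with a change of 1.83 ± 0.25 (SE; adjusted p = 0.0314) and of 1.80 without 24 h replicate 1 (adjusted p = 0.111). CG11617 (FBgn0031232; 2L, 204743 to 207297, minus strand) was at 8.24, 13.4 and 14.1 CPM at 24 h, against 4.18, 5.39 and 3.94 CPM unmated, with a change of 1.37 ± 0.20 (SE; adjusted p = 0.0443) and of 1.53 without 24 h replicate 1. Both have genes on the other strand within their span, CG4294 in CG4269 and mRpL10 and Tbc1d15-17 in CG11617, as have Def (magu) and Tdc1 (Rpp25).

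**Figure D4:**
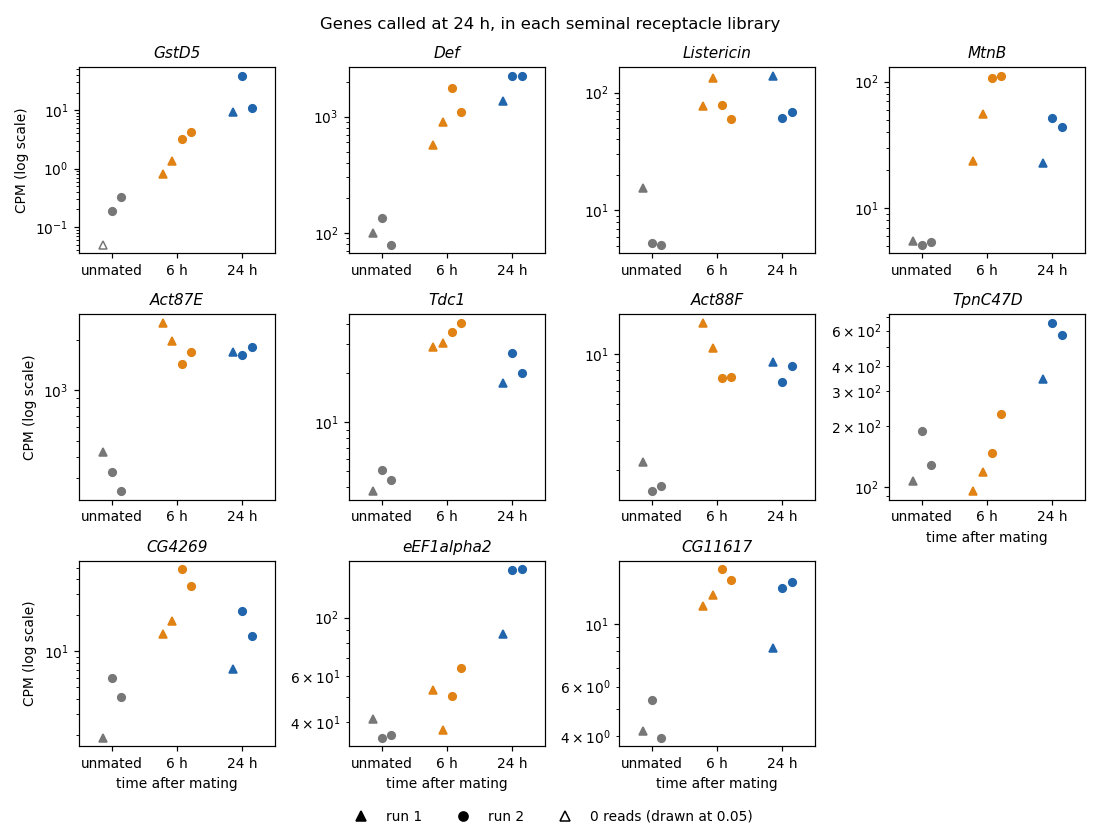
Level (CPM, log axes that differ between panels) of 11 of the called genes in each seminal receptacle library, by time after mating, with triangles for run 1 and circles for run 2, and an open triangle for 0 reads. In every panel the 3 libraries at 24 h lie above the 3 unmated libraries, and TpnC47D and eEF1alpha2 at 6 h lie near the unmated level.

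The 6 h libraries were compared with the same unmated libraries, so the values of the 2 comparisons share their baseline and are set side by side only. At 6 h, 302 of 8141 genes were called against unmated (3.71%), 207 higher (2.54%) and 95 lower (1.17%). Def was at 3.40 at 6 h and 4.16 at 24 h, Act87E at 2.44 and 2.38, and MtnB at 3.73 and 2.73. TpnC47D and eEF1alpha2 were at 0.15 and 0.49 at 6 h (adjusted p = 0.751 and 0.277, edgeR quasi-likelihood test), and at 1.86 and 1.77 at 24 h. Mean levels of TpnC47D were 141.7 ± 42.6 CPM unmated (SD, n = 3), 147.6 ± 58.8 CPM at 6 h (n = 4) and 525.0 ± 161.9 CPM at 24 h (n = 3). Those of eEF1alpha2 were 37.2 ± 3.37, 51.3 ± 11.0 and 130.5 ± 37.7 CPM in the same order.

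A direct test of 24 h against 6 h called 73 of the 8141 genes (0.897%), 24 higher (0.295%) and 49 lower (0.602%). It uses the same 24 h and 6 h libraries as the comparisons with unmated, so values of the 3 comparisons are not independent. Among the 12, it called 3 as higher: GstD5 at 2.88 (adjusted p = 0.0379), TpnC47D at 1.71 (adjusted p = 0.0196) and eEF1alpha2 at 1.28 (adjusted p = 0.0423). It called CG4269 as lower, by -1.23 (adjusted p = 0.046). For the other 8 the difference between the times was not called. Def was at 573.9, 902.0, 1777 and 1103 CPM at 6 h, and its log2 fold change at 24 h over 6 h was 0.76, with a 95% interval from 0.12 to 1.41. Act87E was at 2528, 1958, 1441 and 1695 CPM at 6 h, and its value at 24 h over 6 h was -0.06 (95% interval -0.52 to 0.40). This test depends on single libraries: it called 5, 6 and 18 genes without 24 h replicates 1, 2 and 3.

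Among the 49 genes lower at 24 h than at 6 h was the serine protease gene Send2. It is made by the spermathecal secretory cells, and was at 13.4, 120.4 and 60.2 CPM unmated, at 335.1, 581.7, 2768 and 1667 CPM at 6 h, and at 24.0, 210.1 and 85.8 CPM at 24 h. The 24 h and unmated libraries overlapped (log2 fold change 0.75, adjusted p = 0.876), and the difference of 24 h from 6 h was -4.06 (adjusted p = 0.0116). CG17234, another protease gene of the spermathecae, was at -3.52 between 24 h and 6 h (adjusted p = 0.0116) and 0.03 between 24 h and unmated. The protease list, which holds both genes, summed to 1799, 9316 and 5000 CPM unmated, to 1311, 2386, 13140 and 8597 CPM at 6 h, and to 1036, 5677 and 4558 CPM at 24 h. Send1, of the same list, was at -2.54 at 6 h from unmated (adjusted p = 0.00824), and the part of spermathecal transcripts in these values was not tested.

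Genes of other roles were among the 49 too. jhamt, the methyltransferase of juvenile hormone synthesis, was at 206.9, 307.2 and 363.8 CPM unmated, at a mean of 1730 CPM at 6 h, and at 82.0, 162.0 and 212.5 CPM at 24 h, a difference at 24 h of -3.69 from 6 h (adjusted p = 0.00275) and of -0.98 from unmated (adjusted p = 0.559). Phk-3 was at -2.95 from 6 h and 0.08 from unmated. The peptidoglycan recognition genes PGRP-SA, a sensor of the Toll pathway, and PGRP-LB, an amidase that dampens Imd signalling, were at -1.60 and -1.48 from 6 h, and at 0.50 and 0.28 from unmated. Manf and CaBP1, which act in the endoplasmic reticulum, were at -1.10 and -1.51 from 6 h. Of 44 genes of nucleolar ribosome biogenesis, 14 were higher at 6 h against unmated, with a median of 0.77. Over all genes 2.54% were higher at 6 h, with a median of -0.02. At 24 h none of the 44 was called, against 0.147% of all genes, and the median was 0.24 (0.11 without 24 h replicate 1). In the direct test of 24 h against 6 h 1 gene, nop5, was lower, as were 0.602% of all genes.

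NimC2, a Nimrod receptor, was among the 24 genes higher at 24 h than at 6 h. It was at 1.23 from 6 h (adjusted p = 0.0229), at -1.58 at 6 h from unmated, and at -0.35 at 24 h from unmated. CG34330 was at 1.39 from 6 h and -1.26 from unmated, with means of 78.3 CPM unmated, 13.5 CPM at 6 h and 32.5 CPM at 24 h. Its adjusted p at 24 h against unmated was above 0.05 in edgeR's quasi-likelihood test, and DESeq2 called it as lower.

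Few genes were called in tests of whether the change at 24 h differed between tissues, and these tests could miss smaller differences. The change at 24 h in the seminal receptacle was tested against that in the bursa over 7700 genes expressed in both, and 7 differed, all with the smaller change in the seminal receptacle (0.0909%). Among the 7 were 3 genes of the response to bacteria. CecA1 had a log2 fold change of 1.78 ± 0.40 in the seminal receptacle and of 4.89 ± 0.41 in the bursa (SE), a difference of -3.12 (95% interval -4.23 to -2, adjusted p = 0.0127, edgeR quasi-likelihood test). AttA had 1.40 and 4.01 in the same order, a difference of -2.61 (adjusted p = 0.0239), and PGRP-SD, a recognition protein, 0.78 and 3.55, a difference of -2.77 (adjusted p = 0.0127). CG4269, called in both organs, had 1.84 and 3.89. In these fits CPM was scaled over the 4 tissues together: CecA1 averaged 47.4 CPM at 24 h in the seminal receptacle, against 12.6 CPM unmated. In the bursa it averaged 38.2 CPM at 24 h, against 1.29 CPM unmated. Each of these 7 differences lost its adjusted p of 0.05 in 2 to 5 of the 6 fits without 1 library of the seminal receptacle, and kept its sign in all 6. Without 24 h replicate 1 none of the 7 was called, with adjusted p between 0.0549 and 0.0798.

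Def and Listericin did not share that difference. Def changed by 4.17 in the seminal receptacle and 3.98 in the bursa, 3.24 in the oviduct and 4.06 in the spermathecae, and the difference between the seminal receptacle and the bursa was 0.19, with a 95% interval from -0.75 to 1.12. Listericin changed by 3.45, 3.77, 4.34 and 4.58 in the same order, and the difference from the bursa was -0.32 (95% interval -0.97 to 0.33). Act87E and TpnC47D likewise had differences from the bursa of -0.15 (95% interval -0.67 to 0.38) and -0.09 (95% interval -0.75 to 0.57). Of the 11 genes among the 12 that the bursa expresses, 9 were called higher there in the same fit, as were 1.5% of the genes of the bursa, and CG11617 was not among the 9. For 4 of the 11 the difference from the bursa reached an unadjusted p under 0.05.

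Against the oviduct, 5 of 7646 genes differed, 1 with the higher change in the seminal receptacle (0.0131%) and 4 with the lower (0.0523%). The 4 with the lower change were PGRP-SA, the transferrin gene Tsf3, Arc2 and hdly. Tsf3 changed by -0.45 in the seminal receptacle and by 1.49 in the oviduct, a difference of -1.94 (adjusted p = 0.0398, edgeR quasi-likelihood test). PGRP-SA, a recognition protein of the Toll pathway, changed by 0.51 and 2.17 in the same order, a difference of -1.66 (adjusted p = 0.0402). Arc2 had a difference of -1.51. hdly changed by -0.66 in the seminal receptacle and by 0.44 in the oviduct, a difference of -1.10. None of the 4 was called without 24 h replicate 1. Of the 11 genes among the 12 that the oviduct expresses, 6 were called higher there, as were 0.781% of its genes. The difference from the oviduct reached an unadjusted p under 0.05 in 8 of the 11, and 1 of these passed the adjustment. Act87E changed by 1.38 in the oviduct, a difference of 1.02 (95% interval 0.45 to 1.58, adjusted p = 0.245, edgeR quasi-likelihood test), and TpnC47D by 0.80, a difference of 1.07 (95% interval 0.36 to 1.78, adjusted p = 0.44).

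Against the spermathecae, the other sperm storage organ, 5 of 7435 genes differed, 4 with the higher change in the seminal receptacle (0.0538%) and 1 with the lower (0.0134%). Efr, a nucleotide sugar transporter, changed by -0.17 in the seminal receptacle and by -1.43 ± 0.13 in the spermathecae (SE), a difference of 1.26 (95% interval 0.87 to 1.65, adjusted p = 0.00208) that held in all 6 fits without 1 library of the seminal receptacle. Akr1B, an aldo-keto reductase, changed by -0.02 and -1.47, a difference of 1.45, and Vinc, the adhesion protein vinculin, by 0.79 and -0.32, a difference of 1.11, and neither difference was called without 24 h replicate 1 (adjusted p = 0.0774 for both, edgeR quasi-likelihood test). The spermathecae expressed 7 of the 12 genes called in the seminal receptacle, and all 7 were called higher there too, as were 1.14% of its genes. The difference reached an unadjusted p under 0.05 in 2 of the 7 and passed the adjustment in none.

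**Figure D5:**
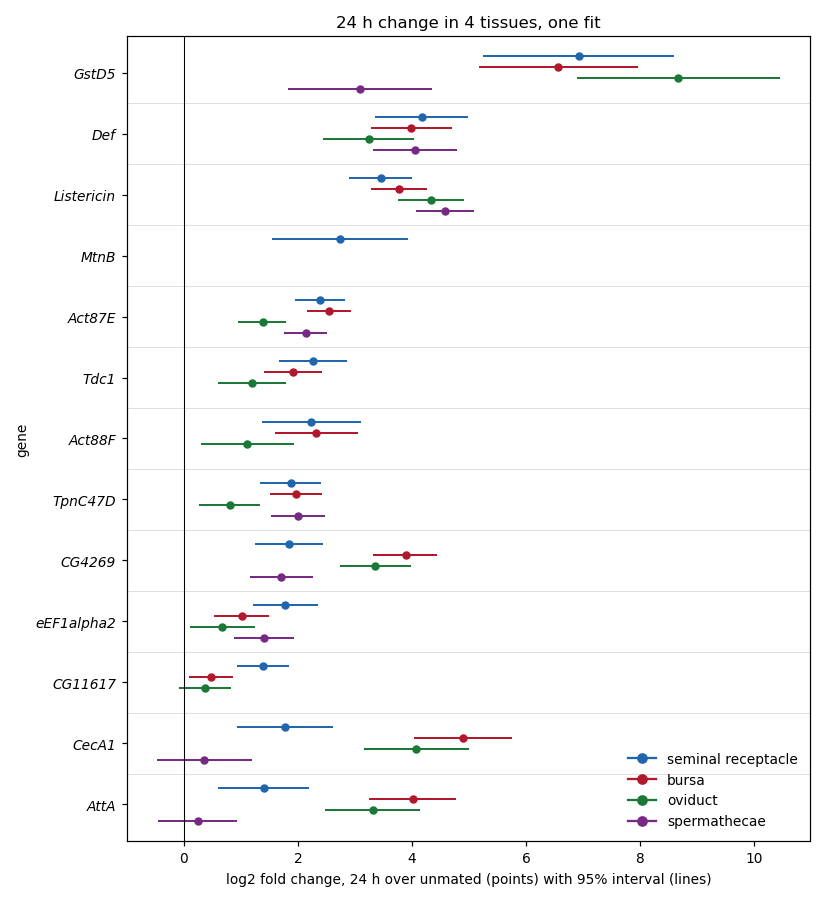
Log2 fold change at 24 h over unmated (points) with 95% intervals (lines) in the seminal receptacle, bursa, oviduct and spermathecae, from a fit of the 4 tissues, for 11 of the called genes, CecA1 and AttA, with no point where a tissue does not express the gene. CecA1 lies at 1.78 in the seminal receptacle and at 4.89 in the bursa.

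Lists of other functions held no call at 24 h in the seminal receptacle. The medians were 0.08 for 85 cytosolic ribosomal proteins, 0.25 for 71 mitochondrial ribosomal proteins, 0.25 for 33 proteasome subunits, -0.02 for 65 nuclear genes of oxidative phosphorylation and -0.22 for 25 genes of epithelial junctions. Without 24 h replicate 1 they were -0.15, 0.05, 0.04, -0.09 and 0.03 in the same order, so that the signs for the cytosolic ribosomal proteins and the epithelial junctions turned. The mitochondrial genome had a median of 0.45 over 20 genes (0.52 without 24 h replicate 1), with 15 above 0 and none called. mt:ATPase6, a subunit of the ATP synthase, came nearest, at 308.6, 494.0 and 486.1 CPM at 24 h, against 114.8, 145.7 and 162.9 CPM unmated (log2 fold change 1.57, adjusted p = 0.0758). The share of mitochondrial reads was high in 24 h replicates 2 and 3, as in the 6 h libraries of run 2. Its part in these values was not tested. Cell cycle genes had a median of 1.11 over 20 genes and germline genes of 0.70 over 8, against 0.12 and 0.21 without 24 h replicate 1.

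Many lists had negative medians with no gene called, and 3 of them are described here. Another such list was that of tracheal genes, with a median of -0.38 over 6 genes (-0.24 without 24 h replicate 1). Of 12 genes of the circadian clock, 3 had a positive change and the median was -0.13 (-0.21 without 24 h replicate 1). tim, whose protein is broken down in light, was at 50.5, 70.2 and 91.0 CPM at 24 h, against 180.7, 124.7 and 170.4 CPM unmated, with no overlap, a log2 fold change of -1.13 and an adjusted p of 0.555. per, its partner, was at 15.4, 12.03 and 17.9 CPM, against 40.4, 22.9 and 31.4 CPM (log2 fold change -1.01, adjusted p = 0.513). The hour of day at dissection is not given in the sources used here. The list written for the sex peptide network holds the spermathecal proteases Send1 and Send2. Its median was -0.59 over 6 genes (-0.42 without 24 h replicate 1). Only 1 of them was above 0, Send2 at 0.75. Send1, a spermathecal protease, was at 184.2, 857.5 and 999.9 CPM at 24 h, against 557.0, 3464 and 1886 CPM unmated, so that within run 2 as within run 1 the 24 h values were lower (log2 fold change -1.55, adjusted p = 0.402). The 9 genes of the juvenile hormone pathway had a median of -0.30 (-0.15 without 24 h replicate 1) and none above 0.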

How the data were processed

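Females were pooled by tissue and RNA was sequenced as single-end reads, which the authors mapped to the FlyBase genome with HISAT2 2.1.0. The deposited table holds read counts for 17752 genes in 64 libraries, not normalized, and these counts were used as deposited. Whether reads were counted by strand is not given in the sources used here. Gene symbols were matched for 17624 identifiers, and positions are from BDGP6.54. Of the 64 columns, 14 could be tied by name to a group but not to a single sample, 5 of them among the 6 compared here, so replicate numbers are those of the count table. Deviations from the group means correlated at 0.33, 0.53 and 0.12 across genes between 24 h and unmated libraries of the same number, and 24 h replicate 3 correlated more with unmated replicate 1 (0.18), so the numbers were also tried as a block. Replicate 1 was the only library of run 1 in each group, so number and run cannot be told apart there. Deviations within a group depend on one another, and so do these correlations. Nothing states that replicates came from separate rearings, so p-values measure the spread between pools.

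Genes with over 2 CPM in at least 2 libraries of 1 time point were tested (8141). Counts of all 10 seminal receptacle libraries were fitted with edgeR 4.0.16 (TMM, quasi-likelihood, R 4.3.3) with sequencing run as covariate, and p-values were adjusted by Benjamini-Hochberg over all genes tested, with 0.05 as the threshold. Differences between tissues were interaction terms of a fit over 4 tissues with run within tissue, which sets its own CPM scale. The biological coefficient of variation was 0.298 with run in the model and 0.388 without. DESeq2 1.42.0 was an alternative, and the script was tested on simulated data. Apart from depth and random spread, only the set changes differed between the simulated libraries. At 24 h against unmated, set log2 changes of 1, 2 and 4 were recovered in 8.96%, 91% and 100% of the changed genes. For the difference from the bursa the shares were 32.8%, 82.1% and 95.5% in the same order. Unchanged genes called numbered 5 and 12 in these 2 simulations.

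Genes were named by rule: called genes whose groups do not overlap, the 10 most read genes, called and most read members of each list described, and genes the study names. Genes outside it (paralogs, markers, and those of the 24 h against 6 h test) were chosen after their values were seen. The libraries described and the gene lists were chosen with earlier results of these data known. Of the genes called at 24 h, 1 is not reported here.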

Additional observations from a re-analysis of the deposited data

Results flagged for a closer look

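In each of 16 genes given here the change at 24 h differed between the seminal receptacle and another tissue in a test of that difference (edgeR quasi-likelihood interaction, Benjamini-Hochberg adjusted p at most 0.05). The values are differences of log2 fold changes, seminal receptacle minus the other tissue. Against the bursa these were CecA1 at -3.12, CG9519 at -2.85, PGRP-SD at -2.77, AttA at -2.61, CG4269 at -2.04, CG1441 at -1.90 and Phk-3 at -1.52. Against the oviduct they were Tsf3 at -1.94, PGRP-SA at -1.66, Arc2 at -1.51 and hdly at -1.10. Against the spermathecae they were frac at -2.35, CG32407 at 0.94, Vinc at 1.11, Efr at 1.26 and Akr1B at 1.45.

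Efr kept its call in all 6 fits without 1 library of the seminal receptacle. Tsf3, PGRP-SA, Arc2, CG32407 and Vinc kept it in none of them, and the other 10 in 1 to 4. Without 24 h replicate 1, the library with egg transcripts, Efr was the only gene of these 16 still called, at 1.2. PGRP-SD shares its span with CG32373 on the same strand, and Phk-3, CG9519, Tsf3, hdly and CG4269 overlap genes on the other strand, and how their reads were divided between such neighbours is not given in the sources used here.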

How the results depend on the processing

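The 24 h comparison called 12 genes, and all 12 kept a positive change under every alternative. It called 66 with DESeq2, 6 in a fit of its 6 libraries only, 4 without sequencing run in the model, 3 at a Bonferroni-adjusted p of 0.01 and, in the fit with 3 other tissues added after seeing the data, 39. With RLE size factors, no filter on low counts, run 2 alone and thinned counts it called 10, 11, 8 and 9, and without 1 library 5 to 12. Of the 8 called in run 2 alone, 5 were among the 12 and 1 was lower. GstD5 and Tdc1, called in every fit without 1 library, were not called in run 2 alone (adjusted p = 0.135 and 0.0534, edgeR quasi-likelihood test). The comparison of 6 h with unmated called 302 genes, against 851 with DESeq2, 78 without run, 5 in run 2 alone, 9 at the Bonferroni threshold and 53 to 117 without 1 unmated library. That of 24 h with 6 h called 73, against 379, 2, 5 and 2 under the same settings in the same order, and 5 to 18 without 1 library at 24 h. The difference from the bursa (7 genes) called 0 without run, 1 in run 2 alone, 0 at the Bonferroni threshold and 0 to 7 without 1 library. That from the oviduct (5) called 2 with no filter, 1 without run, 3 in run 2 alone, 1 at the Bonferroni threshold and 1 to 9 without 1 library. That from the spermathecae (5) called 3 with RLE, 1 without run, 1 in run 2 alone, 1 at the Bonferroni threshold and 1 to 3 without 1 library. The cause of these changes was not tested. CG17234, not called, was at 0.03, at 0 with no filter, and between -0.44 (without 24 h replicate 2) and 0.36 (without unmated replicate 2) without 1 library, being negative also without unmated replicates 1 (-0.03) and 3 (-0.16). The fit with a replicate block on the numbers of the count table, added after seeing the data, called 3. The planned block on the numbers of the sample titles was not run, because 5 of the 6 columns could not be tied to a title. The lowest totals were those of 24 h replicates 2 and 3 (12177864 and 14132323 reads), and of the 9 genes called in counts thinned to the smallest total, 8 were among the 12.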

Other observations

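The most read genes of the unmated organ besides Drs were CG18628, genes of the mitochondrial genome, the yolk protein genes Yp1, Yp2 and Yp3, and Msr-110, and none was called at 24 h. CG18628 was at 69050, 60580 and 78440 CPM at 24 h, against 98980, 103100 and 98730 CPM unmated. Every 24 h library was lower, with a log2 fold change of -0.53 (adjusted p = 0.871, edgeR quasi-likelihood test). Yp1, which the fat body secretes, was at 4734, 18640 and 11260 CPM at 24 h, against 7520, 14170 and 9690 CPM unmated, and Msr-110 was at -0.58 (adjusted p = 0.876).

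l(2)efl, a small heat shock protein, was at 546.1, 744.1 and 548.1 CPM at 24 h, against 166.7, 308.6 and 193.3 CPM unmated, without overlap. Its log2 fold change was 1.48 ± 0.25 (SE), with an adjusted p of 0.0758 in edgeR's quasi-likelihood test over the seminal receptacle alone and of 0.000182 in the fit of 4 tissues. Of 22 genes of the heat shock and chaperone list none was called over the seminal receptacle alone, with a median of -0.25 (-0.30 without 24 h replicate 1).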
